A study of Mus musculus with 12 samples.

Results

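Lysosomes are the acidic compartments in which cells take apart proteins, sugars and lipids. The results concern 37 genes that encode lysosomal enzymes, lysosomal membrane proteins, the proton pump that acidifies the compartment, and the transcription factors that control them, in mouse epididymal fat after partial hepatectomy. They were taken as a list of symbols from a deposited table of 22151 genes, all 37 were found and had counts in the libraries, and all 37 passed the filter on low counts along with 17012 genes in all. By role, 20 encode hydrolases (11 proteases, 6 glycosidases and 3 lipid hydrolases), 2 encode the saposin precursor and progranulin, 4 encode membrane proteins, 3 encode transcription factors and 8 encode pump subunits. The list was set out to compare the hydrolases with the pump.

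The tissue was epididymal white fat, the visceral pad beside the epididymis, of male mice aged 12 to 14 weeks, and its RNA was sequenced in bulk. The strain is written C57bl6 in the sample labels and C57BL6/J in the series design, and no genetic change is named. The groups were 3 animals 7 days and 5 animals 3 days after a 70% partial hepatectomy (PHx), an operation after which the liver grows back, and 4 animals after a sham laparotomy in which the liver was left whole. The sampling day of the sham mice is not stated, and their source field places them before hepatectomy. Both days are set against the same 4 sham libraries, so the comparisons with sham share their controls. In bulk tissue, a change in the number of cells of a type and a change in RNA per cell cannot be told apart.

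Lysosomal hydrolases are made in the endoplasmic reticulum, tagged with mannose 6-phosphate in the Golgi and carried to the lysosome, where many are activated by cleavage at low pH. The vacuolar ATPase makes that low pH: its V1 sector burns ATP in the cytosol and turns a rotor that drives protons through the V0 sector in the membrane. TFEB, TFE3 and MITF, which mTORC1 kinase keeps in the cytosol of fed cells, bind a short E-box sequence near many of these genes. In fat, lysosomal genes are known to be high in macrophages that take up lipid, and acid lipase degrades lipid delivered to lysosomes in macrophages and adipocytes.

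The letters bound by those factors can be read in the promoters. The windows used here are the 250 bases before each gene's start, from RefSeq on build GRCm38.p6, whose coordinates differ from the mm39 build of the count table. Of the 37 genes, 31 had such a window. Asah1, Atp6v1b2, Atp6v1c1, Atp6v1h, Ctsb and Ctsh are named only. The core E-box CACGTG, which reads the same on both strands, lay in the windows of 9 of 31 genes (29.03%) and of 1854 of all 27025 genes with a window (6.86%). The 9 were the hydrolase genes Ctsa, Ctsd, Ctsl, Gla, Glb1 and Lgmn, the membrane protein genes Lamp1 and Mcoln1, and the pump gene Atp6v1a. The longer form TCACGTGA, also the same on both strands and containing the shorter one, lay in 5 of 31 (16.1%) and in 245 of all genes (0.907%), and its 5 genes were Ctsa, Ctsd, Gla, Mcoln1 and Atp6v1a. A match is a description of the letters in the window. The 5 windows shown belong to genes whose counts are described in every library: Ctsk, Hexa and Atp6v1a because their libraries did not overlap between a hepatectomy group and sham, and Gla and Ctsd as hydrolase genes with the E-box. Capitals mark CACGTG.

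The windows run 5′ to 3′ on the strand of each gene. They lie at chr3:95498960-95499209 (plus strand) for Ctsk, chrX:134601006-134601255 (minus) for Gla, chr7:142387828-142388077 (minus) for Ctsd, chr9:59539290-59539539 (plus) for Hexa and chr16:44139260-44139509 (minus) for Atp6v1a, all on GRCm38.p6.
Ctsk: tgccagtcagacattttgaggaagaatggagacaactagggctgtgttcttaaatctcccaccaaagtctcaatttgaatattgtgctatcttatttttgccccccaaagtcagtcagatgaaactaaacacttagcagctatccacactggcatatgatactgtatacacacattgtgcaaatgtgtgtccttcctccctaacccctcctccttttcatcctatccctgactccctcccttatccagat
Gla: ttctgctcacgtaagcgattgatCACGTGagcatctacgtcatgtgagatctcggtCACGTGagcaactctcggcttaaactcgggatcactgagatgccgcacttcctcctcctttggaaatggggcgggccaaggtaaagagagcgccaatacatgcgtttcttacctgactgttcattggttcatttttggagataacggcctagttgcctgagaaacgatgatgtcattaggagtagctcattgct
Ctsd: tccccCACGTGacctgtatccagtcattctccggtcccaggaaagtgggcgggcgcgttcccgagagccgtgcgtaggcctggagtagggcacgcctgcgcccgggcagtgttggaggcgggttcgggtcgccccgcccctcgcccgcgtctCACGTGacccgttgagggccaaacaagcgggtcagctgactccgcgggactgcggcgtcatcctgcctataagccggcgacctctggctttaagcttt
Hexa: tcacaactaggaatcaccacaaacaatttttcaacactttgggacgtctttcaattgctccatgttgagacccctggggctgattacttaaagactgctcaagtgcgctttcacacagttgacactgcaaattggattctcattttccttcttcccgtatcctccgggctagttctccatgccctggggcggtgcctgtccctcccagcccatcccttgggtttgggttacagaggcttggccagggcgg
Atp6v1a: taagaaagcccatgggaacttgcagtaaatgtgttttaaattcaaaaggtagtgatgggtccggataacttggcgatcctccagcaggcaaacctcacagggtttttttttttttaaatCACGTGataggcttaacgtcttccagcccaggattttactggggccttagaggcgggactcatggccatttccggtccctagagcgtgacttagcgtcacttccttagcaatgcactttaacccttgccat
Counted from the start, the first base of the E-box stood at -227 and -194 in Gla, at -245 and -98 in Ctsd and at -131 in Atp6v1a. The Ctsk and Hexa windows hold no CACGTG.

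Library totals ranged from 13128853 to 23474246 counts, and some libraries were unlike their group. The profile of day 3 library 5 resembled sham (mean r across genes 0.926) more than the other day 3 libraries (0.894), and resembled day 7 library 2 most (0.957). Day 7 libraries 2 and 3 also resembled sham (0.916 and 0.918) more than their own group (0.892 and 0.905). The profile closest to day 7 library 3 came from sham library 2 (0.944), and that closest to day 7 library 1 from day 3 library 2 (0.936). Day 3 library 1, labelled male, had 359 CPM of Xist against at most 1.83 CPM in the other 11 libraries, and 0.643 CPM of the Y-linked Ddx3y against at least 81.1 CPM elsewhere. Sham library 4 had 2315 CPM of the hepatocyte gene Alb, against 1.78 to 5.99 CPM in the other sham libraries. As a check of the tissue, all 15 adipocyte markers had counts, with summed levels of 22006 to 46164 CPM at day 7, 27217 to 40479 CPM at day 3 and 24336 to 47425 CPM in sham, and 0 of 10 epididymis and testis markers had any.

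Most of the 37 listed genes lay above sham at both days, but no member passed the test. Of 31 other lysosomal hydrolases, described further below, 12 had a positive difference at day 7 and 11 at day 3. Levels are counts relative to the scaled library total (CPM), and log2 differences come from edgeR's quasi-likelihood test with Benjamini-Hochberg adjustment over the 17012 genes, at a threshold of 0.05. At day 7, 34 of 37 log2 differences from sham were positive, with a median of 0.40, beside 50.7% of all genes and a median of 0.0069. At day 3, 32 of 37 were positive with a median of 0.20, beside 48.3% of all genes and a median of -0.020. After adjustment 0 of 37 members passed at day 7, where 0% of all genes did and the smallest adjusted p of a member was 0.564. At day 3, 0 of 37 members passed as well, the smallest being 0.403, and 0.00588% of all genes did, which is 1 gene (Pttg1, securin).

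**Figure D1:**
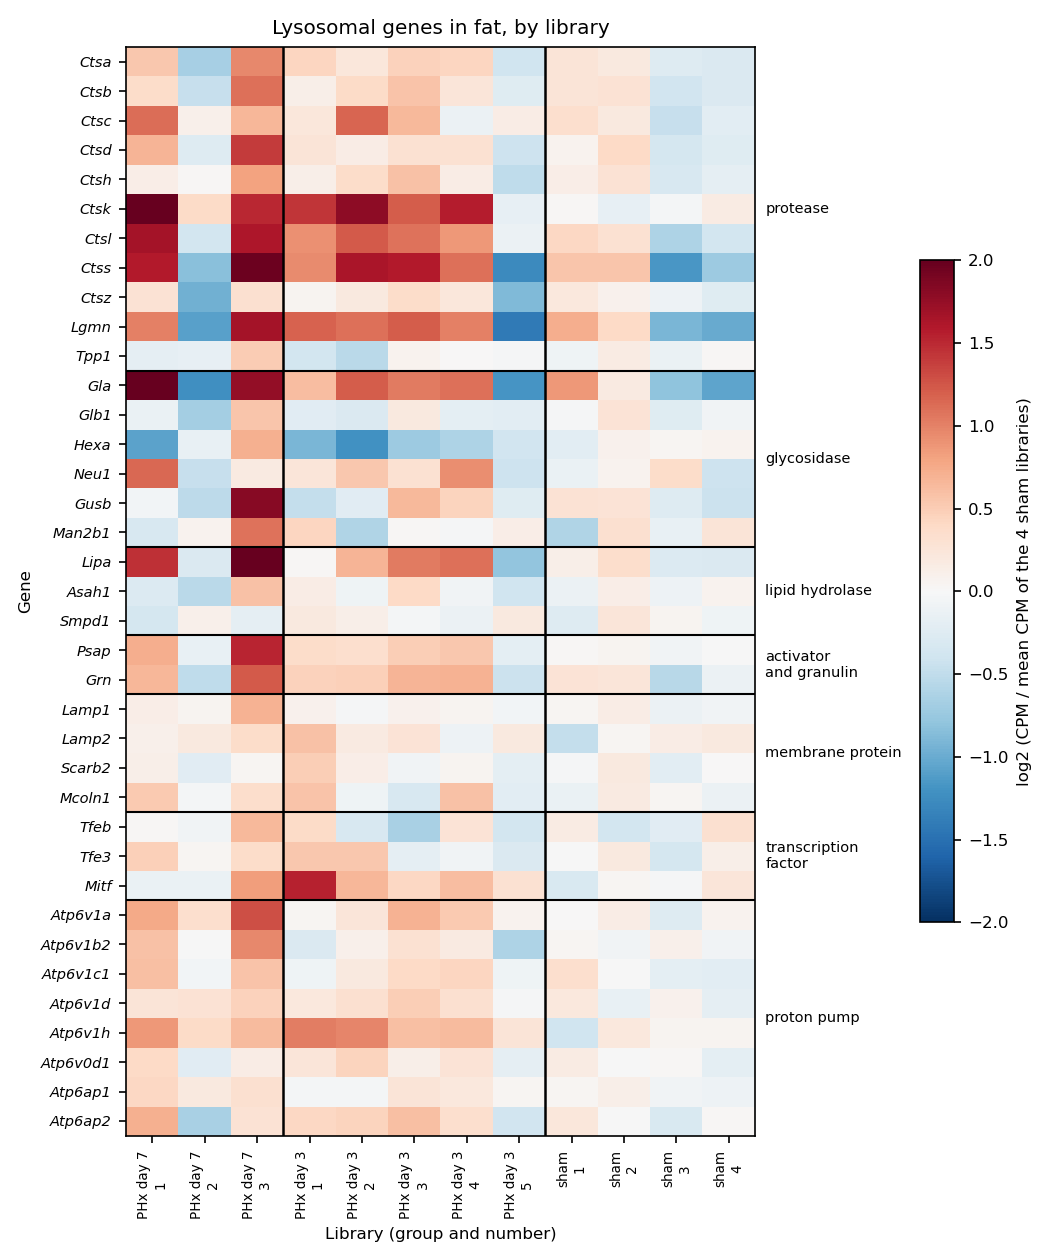
Level of each of the 37 genes (down the page, by role) in each of the 12 libraries (across: day 7, day 3, sham). Colours give the log2 ratio of CPM to that gene's mean CPM over the sham libraries. Day 7 library 3 is above all sham libraries for 33 of 37 genes, and day 7 library 2 and day 3 library 5 are each below all sham libraries for 11 of 20 hydrolases. The share of all genes outside the sham range in these libraries was not counted.

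Before adjustment, 7 members had p under 0.05 at day 7, all of them higher than sham, beside 6.26% of all genes (3.51% higher and 2.75% lower). They were the proteases Ctsk and Ctsl, the acid lipase Lipa, the saposin precursor Psap and the pump subunits Atp6v1a, Atp6v1b2 and Atp6v1h. At day 3, 3 were higher (Ctsk, Mitf and Atp6v1h) and 1 was lower (Hexa), beside 10.9% of all genes (5.9% higher and 4.97% lower). All day 7 libraries lay above all sham libraries for 5 members, Ctsk, Atp6v1a, Atp6v1d, Atp6v1h and Atp6ap1, beside 6.9% of all genes in either direction (2.83% higher and 4.07% lower). At day 3 this held for Atp6v1h and Mitf, and all day 3 libraries lay below all sham libraries for Hexa, beside 3.72% of all genes (1.58% higher and 2.14% lower).

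**Figure D2:**
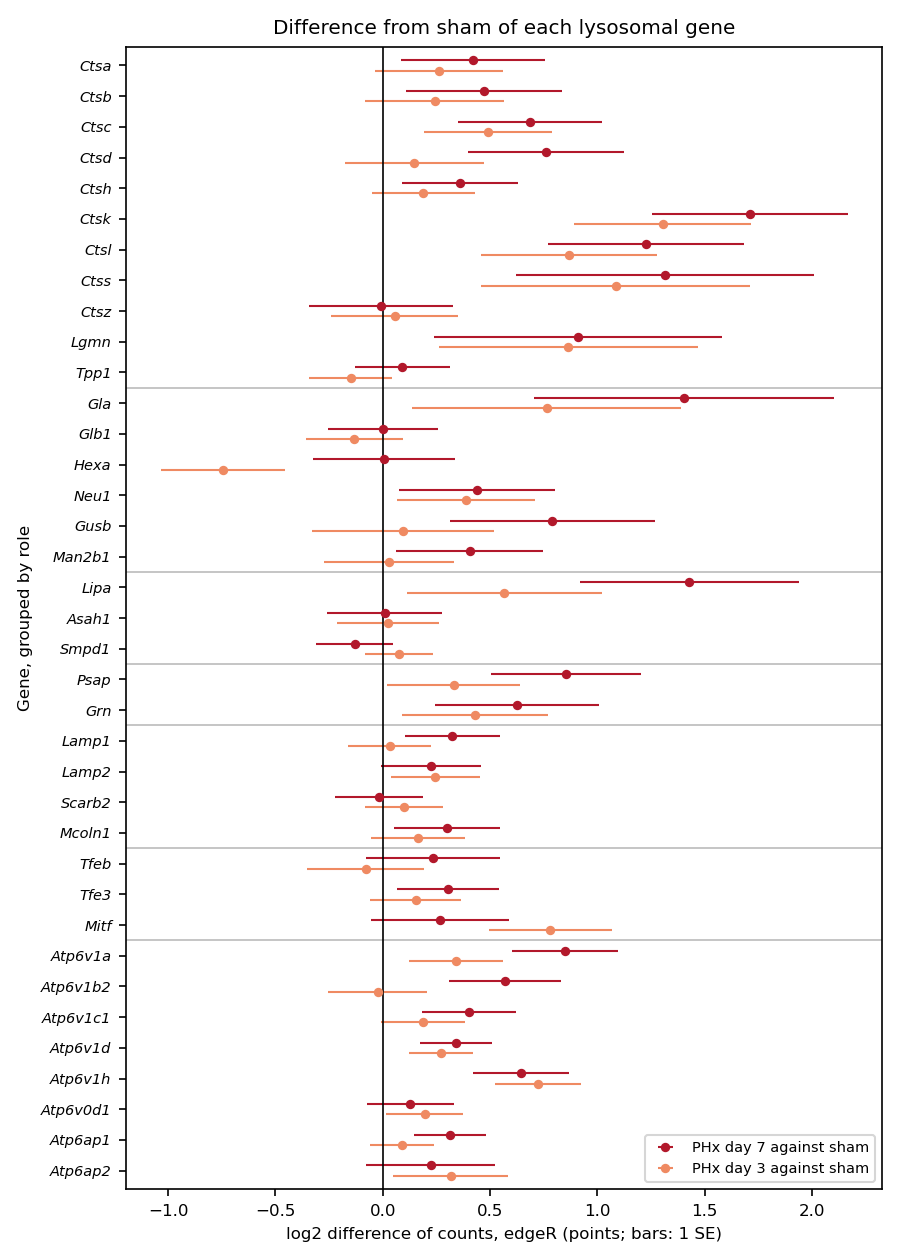
Log2 difference from sham of each gene (points, edgeR; bars are 1 SE), grouped by role, for day 7 and day 3. Ctsk has the highest point on both days, at 1.71 and 1.30, and Hexa has the lowest at day 3, at -0.75.

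Of the 11 proteases, 10 had a positive difference at day 7 (median 0.69, from -0.0067 to 1.71) and 10 at day 3 (median 0.26, from -0.15 to 1.30). Ctsk, the collagen-degrading cathepsin best known from osteoclasts, had 122, 27.97 and 60.7 CPM in the day 7 libraries, 57.8, 74.4, 49.6, 63.8 and 19.1 CPM in the day 3 libraries and 21.7, 19.1, 20.8 and 24.1 CPM in the sham libraries. Every day 7 library and 4 of 5 day 3 libraries lay above the sham range, while day 3 library 5 sat at its lower end. Its log2 difference was 1.71 at day 7 (SE 0.455, edgeR adjusted p = 0.564) and 1.30 at day 3 (SE 0.413, adjusted p = 0.403). Without day 7 library 1, which had the highest level, the day 7 difference was 1.06.

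Ctsl, a cysteine protease with broad activity on proteins brought into the lysosome, had 1441, 353 and 1395 CPM in the day 7 libraries, 858, 1069, 965, 833 and 418 CPM in the day 3 libraries and 607, 563, 297 and 352 CPM in the sham libraries. Day 7 libraries 1 and 3 and day 3 libraries 1 to 4 lay above every sham library, and day 7 library 2 and day 3 library 5 lay within the sham range. The log2 difference was 1.23 at day 7 (SE 0.457, adjusted p = 0.731) and 0.87 at day 3 (SE 0.411, adjusted p = 0.464). Ctss, the cathepsin that trims the invariant chain in antigen-presenting cells, had 317, 59.2 and 411 CPM in the day 7 libraries, 203, 327, 318, 227 and 43.6 CPM in the day 3 libraries and 155, 156, 46.9 and 63.9 CPM in the sham libraries. The same 6 libraries stood above sham, and the sham libraries themselves fell into a higher pair (1 and 2) and a lower pair (3 and 4). Its differences were 1.31 at day 7 (SE 0.693, adjusted p = 0.827) and 1.08 at day 3 (SE 0.627, adjusted p = 0.526).

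Ctsd, the main aspartic protease of lysosomes, had 2549.7, 1325 and 4209 CPM in the day 7 libraries, 1905, 1773, 1969, 1963 and 1199 CPM in the day 3 libraries and 1678, 2094, 1241 and 1350.4 CPM in the sham libraries. Only day 7 libraries 1 and 3 exceeded the sham range, and day 3 library 5 fell just below it. The log2 difference was 0.76 at day 7 (SE 0.364, adjusted p = 0.811) and 0.15 at day 3 (SE 0.322, adjusted p = 0.886). Lgmn, the asparagine-specific protease that matures other cathepsins, had differences of 0.91 at day 7 and 0.86 at day 3 with standard errors of 0.670 and 0.604. It ran from 109.6 to 732 CPM at day 7, from 86.6 to 539 CPM at day 3 and from 115 to 384 CPM in sham. The other proteases overlapped sham at both days: Ctsc, which activates granule proteases of leukocytes (0.69 at day 7 and 0.49 at day 3), Ctsb, an abundant endo- and exopeptidase (0.47 and 0.24), Ctsa, which also protects Neu1 and Glb1 in a complex (0.42 and 0.26), the aminopeptidase Ctsh (0.36 and 0.19), the tripeptidyl peptidase Tpp1 (0.0910 and -0.15) and the carboxypeptidase Ctsz (-0.00674 and 0.0549).

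**Figure D3:**
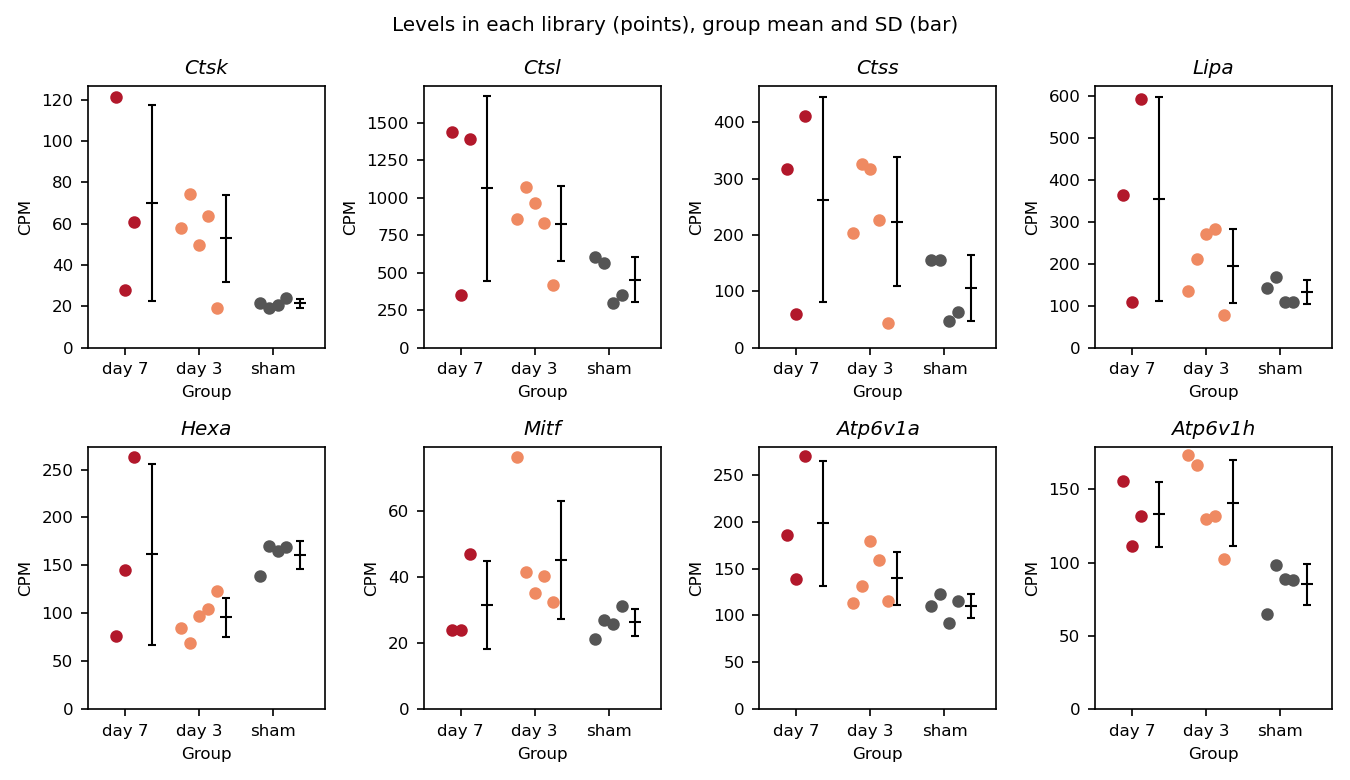
Levels in CPM of 8 lysosomal genes in each library (points) at day 7, day 3 and in sham, with the group mean and SD beside them (n = 3, 5 and 4). The day 7 libraries of Ctsk, Atp6v1a and Atp6v1h and the day 3 libraries of Atp6v1h and Mitf lie above all sham libraries, and the day 3 libraries of Hexa lie below them.

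The 6 glycosidases differed among themselves. Their median difference was 0.42 at day 7, all 6 being at or above 0, and 0.061 at day 3. Hexa, the alpha subunit of beta-hexosaminidase, which removes the terminal sugar of GM2 ganglioside, had 76.6, 145 and 263 CPM in the day 7 libraries, 85.1, 69.2, 97.1, 105 and 123 CPM in the day 3 libraries and 139, 171, 165 and 169 CPM in the sham libraries. All day 3 libraries lay below all sham libraries, whereas the day 7 libraries fell below, inside and above the sham range. The log2 difference was 0.00777 at day 7 (SE 0.331, adjusted p = 0.999) and -0.75 at day 3 (SE 0.289, adjusted p = 0.414). The day 7 value was -0.51 without library 3 and 0.36 without library 1.

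Gla, the alpha-galactosidase that clears globotriaosylceramide, had 51.5, 5.36 and 42.3 CPM in the day 7 libraries, 19.2, 28.9, 25.8, 26.8 and 5.50 CPM in the day 3 libraries and 22.7, 14.1, 7.18 and 5.99 CPM in the sham libraries. Day 7 libraries 1 and 3 and day 3 libraries 2 to 4 exceeded the sham range, and day 7 library 2 and day 3 library 5 lay just below it. Its difference was 1.40 at day 7 (SE 0.699, adjusted p = 0.826) and 0.76 at day 3 (SE 0.627, adjusted p = 0.657). Gusb, the beta-glucuronidase, had 0.79 at day 7 and 0.0933 at day 3, the day 7 value resting on library 3 (289 CPM, against 78.4 and 57.1 CPM in the others). Neu1, the lysosomal sialidase, had 0.44 and 0.39, the mannosidase Man2b1 0.41 and 0.0290, and the beta-galactosidase Glb1 0.000503 and -0.13, all with overlapping libraries.

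Among the lipid hydrolases, Lipa stood apart from the other 2. Lipa is lysosomal acid lipase, which frees fatty acids and cholesterol from lipid droplets and lipoproteins taken into the lysosome. It had 363, 108 and 594 CPM in the day 7 libraries, 134, 212, 271, 283 and 76.8 CPM in the day 3 libraries and 143, 168, 109.5 and 108 CPM in the sham libraries. Day 7 libraries 1 and 3 and day 3 libraries 2 to 4 exceeded the sham range, and day 3 library 5 lay below it. Day 7 library 2 (107.65 CPM) lay just below the lowest sham library (108.05 CPM). The log2 difference was 1.43 at day 7 (SE 0.510, adjusted p = 0.721) and 0.57 at day 3 (SE 0.454, adjusted p = 0.648). Without day 7 library 3 the day 7 difference was 0.84. The acid ceramidase Asah1 differed by 0.00938 at day 7 and 0.0247 at day 3, and the acid sphingomyelinase Smpd1 by -0.13 and 0.0748. Smpd1 averaged 72.2 ± 11.5 CPM at day 7, 83.3 ± 7.91 CPM at day 3 and 79.1 ± 11.7 CPM in sham (SD, n = 3, 5 and 4).

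Psap encodes the precursor of the saposins, the small proteins that present sphingolipids to the hydrolases. It had 3397, 1855 and 5928 CPM in the day 7 libraries, 2661, 2602, 2902, 3000.3 and 1802 CPM in the day 3 libraries and 2097, 2137, 1969 and 2047 CPM in the sham libraries. The 4 sham libraries were close together, and 2 of 3 day 7 and 4 of 5 day 3 libraries lay above them, with day 7 library 2 and day 3 library 5 below. The log2 difference was 0.85 at day 7 (SE 0.348, adjusted p = 0.768) and 0.33 at day 3 (SE 0.309, adjusted p = 0.704). Without day 7 library 3 the first was 0.36. Grn, progranulin, a secreted and lysosomal glycoprotein that binds prosaposin, had 634, 279.97 and 936 CPM in the day 7 libraries, 550.1, 558, 638, 648 and 298 CPM in the day 3 libraries and 483, 474, 272 and 370.3 CPM in the sham libraries. The same pattern of libraries held except that day 7 library 2 and day 3 library 5 lay inside the sham range, and the differences were 0.62 at day 7 (SE 0.382, adjusted p = 0.852) and 0.43 at day 3 (SE 0.340, adjusted p = 0.644).

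The 4 membrane proteins differed less from sham, with medians of 0.26 at day 7 and 0.13 at day 3. Lamp1, an abundant glycoprotein of the lysosomal coat, had 838, 796 and 1241 CPM in the day 7 libraries, 815, 753, 809, 798 and 736 CPM in the day 3 libraries and 785, 846, 705 and 726 CPM in the sham libraries. Day 7 library 3 was the 1 library above the sham range, and the difference was 0.32 at day 7 (SE 0.220, adjusted p = 0.867) and 0.0320 at day 3 (SE 0.194, adjusted p = 0.963). Lamp2, whose splice form takes part in chaperone-mediated autophagy, had 451, 483 and 539 CPM in the day 7 libraries, 634, 473, 508, 393 and 481 CPM in the day 3 libraries and 302, 434, 465 and 479.7 CPM in the sham libraries. Sham library 1 was low, the rest overlapped, and the difference was 0.23 at day 7 (SE 0.232, adjusted p = 0.913) and 0.25 at day 3 (SE 0.205, adjusted p = 0.665). Lamp2 is X-linked, and its highest level was in day 3 library 1, the library with Xist counts. Without that library the day 3 difference was 0.13. The calcium channel Mcoln1 differed by 0.30 and 0.16, and Scarb2, which carries glucocerebrosidase to the lysosome, by -0.0177 and 0.10.

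Of the transcription factors, Mitf was higher in every day 3 library than in any sham library. It had 23.9, 24.1 and 46.99 CPM in the day 7 libraries, 76.4, 41.7, 35.1, 40.3 and 32.5 CPM in the day 3 libraries and 21.3, 26.98, 25.9 and 31.1 CPM in the sham libraries. Day 3 library 1, the library with Xist counts, was the highest, and 2 of 3 day 7 libraries lay within the sham range. The difference was 0.78 at day 3 (SE 0.286, adjusted p = 0.411), or 0.50 without day 3 library 1, and 0.27 at day 7 (SE 0.320, adjusted p = 0.928). Tfe3 had 71.3, 53.1 and 66.3 CPM in the day 7 libraries, 74.6, 74.8, 45.2, 49.3 and 42.4 CPM in the day 3 libraries and 51.3, 58.7, 40.2 and 55.8 CPM in the sham libraries, and its groups overlapped. Its differences were 0.30 at day 7 (SE 0.239, adjusted p = 0.879) and 0.15 at day 3 (SE 0.211, adjusted p = 0.811). Tfe3 is X-linked, and without day 3 library 1 its day 3 difference was 0.029. The differences of Tfeb were 0.23 at day 7 and -0.0804 at day 3. These are levels of RNA, while the factors are known to be controlled mainly through their place in the cell.

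All 8 pump subunits lay above sham at day 7, with a median difference of 0.37 (from 0.13 to 0.85), and 7 of 8 at day 3, with a median of 0.23 (from -0.024 to 0.72). Atp6v1h, the regulatory H subunit of the V1 sector, had 156, 111 and 132 CPM in the day 7 libraries, 173, 167, 129.6, 132 and 102 CPM in the day 3 libraries and 64.8, 98.5, 88.9 and 88.3 CPM in the sham libraries. All 8 libraries after hepatectomy lay above all 4 sham libraries, the closest being day 3 library 5. The log2 difference was 0.64 at day 7 (SE 0.224, adjusted p = 0.721) and 0.72 at day 3 (SE 0.201, adjusted p = 0.403). Atp6v1h was the only member whose libraries did not overlap with sham, in the same direction, on both days.

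Atp6v1a, the catalytic subunit that hydrolyses ATP, had 186, 139 and 271 CPM in the day 7 libraries, 113, 131, 179, 159 and 116 CPM in the day 3 libraries and 111, 123, 92.4 and 115 CPM in the sham libraries. The day 7 libraries all lay above sham, and the day 3 libraries overlapped it. The difference was 0.85 at day 7 (SE 0.246, adjusted p = 0.598) and 0.34 at day 3 (SE 0.219, adjusted p = 0.567). Its partner in the catalytic ring, Atp6v1b2, had 0.57 at day 7 (SE 0.261, adjusted p = 0.796) and -0.0241 at day 3 (SE 0.230, adjusted p = 0.978), from 174 to 339 CPM at day 7, 114 to 216 CPM at day 3 and 166 to 187 CPM in sham.

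Atp6v1d, a subunit of the rotor stalk, had 56.3, 57.3 and 64.6 CPM in the day 7 libraries, 54.2, 58.5, 65.8, 58.6 and 46.1 CPM in the day 3 libraries and 54.3, 42.2, 49.8 and 41.4 CPM in the sham libraries. Its day 7 libraries all lay above sham, the lowest of them (56.3 CPM) close to the highest sham library (54.3 CPM), and the differences were 0.34 at day 7 (SE 0.169, adjusted p = 0.826) and 0.27 at day 3 (SE 0.149, adjusted p = 0.508). Atp6ap1, an accessory protein needed for assembly of the pump, had 246, 212 and 231 CPM in the day 7 libraries, 180.04, 180.4, 221, 214 and 189 CPM in the day 3 libraries and 190.4, 201, 176 and 173 CPM in the sham libraries. Here too the day 7 libraries lay above sham and the day 3 libraries overlapped it, with differences of 0.31 at day 7 (SE 0.169, adjusted p = 0.830) and 0.0909 at day 3 (SE 0.150, adjusted p = 0.842). The remaining subunits overlapped sham on both days: the V1 subunit Atp6v1c1 (0.40 at day 7 and 0.19 at day 3), the V0 subunit Atp6v0d1 (0.13 and 0.20) and the accessory protein Atp6ap2, also known as the prorenin receptor (0.22 and 0.32).

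The hydrolases and the pump were compared by a score per library, the mean over a list of log2 CPM after subtracting the average of each gene in all 12 libraries. At day 7 the mean score lay 0.47 above sham for the hydrolases and 0.41 above sham for the pump, and at day 3 it lay 0.29 and 0.25 above sham. The spread within groups was larger for the hydrolases. The hydrolase score was 0.42, -0.59 and 0.87 in the day 7 libraries, 0.0784, 0.20, 0.36, 0.23 and -0.62 in the day 3 libraries and -0.0476, 0.0421, -0.49 and -0.45 in the sham libraries. The pump score was 0.38, -0.16 and 0.39 at day 7, -0.00653, 0.14, 0.24, 0.17 and -0.31 at day 3 and -0.12, -0.17, -0.27 and -0.27 in sham. For both lists day 7 library 2 was the lowest of its group and day 3 library 5 the lowest of its own.

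The hydrolase score averaged 0.23 ± 0.74 at day 7, 0.051 ± 0.39 at day 3 and -0.24 ± 0.27 in sham, and the pump score 0.20 ± 0.31 at day 7, 0.044 ± 0.22 at day 3 and -0.21 ± 0.076 in sham (SD, n = 3, 5 and 4). The hydrolase score minus the pump score, in which the scaling of a library cancels, averaged 0.032 ± 0.45 at day 7, 0.0063 ± 0.18 at day 3 and -0.032 ± 0.21 in sham. Its difference from sham, 0.064 at day 7 and 0.038 at day 3, was smaller than the spread between libraries of any group, and between the days it was 0.026. It ran from -0.16 to 0.29 at day 7 and from -0.027 to 0.12 at day 3 when single libraries were left out. Across genes, the SD of log2 CPM within groups had a median of 0.49 for the hydrolases (from 0.19 for Smpd1 to 1.19 for Ctss), 0.28 for the pump subunits (from 0.12 for Atp6ap1 to 0.44 for Atp6ap2) and 0.55 for all genes. With library totals alone in place of scaled totals, the median of all genes shifted to -0.092 at day 7 and -0.13 at day 3, 14 of 20 hydrolases were positive at day 7 and 12 at day 3, and 8 and 6 of 8 pump subunits were.

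**Figure D4:**
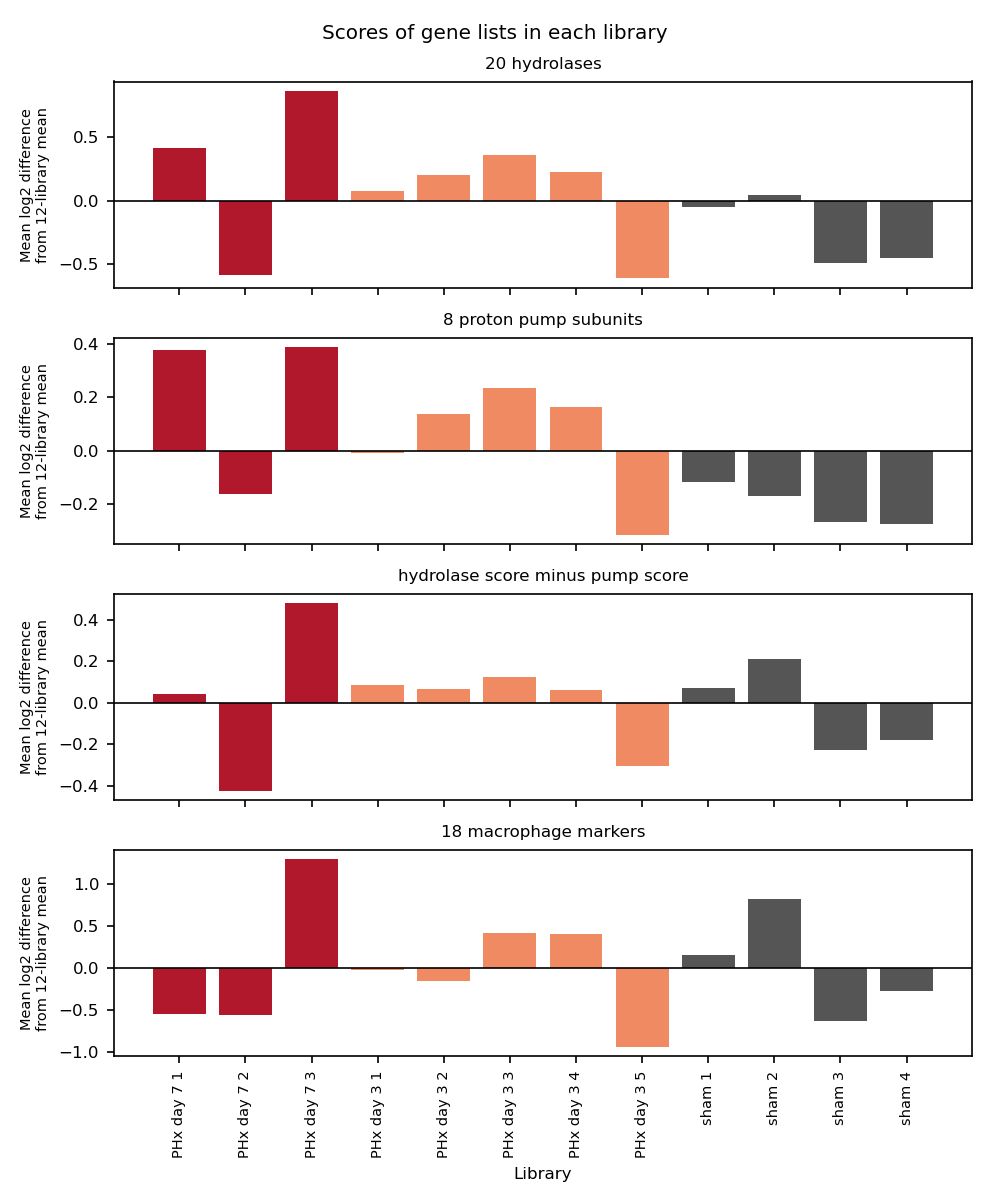
Scores of the 20 hydrolases, the 8 pump subunits, the difference of these scores and 18 macrophage markers in each library (bars, mean log2 difference from the mean over the 12 libraries). Day 7 library 3 has the highest hydrolase score (0.87), day 3 library 5 the lowest (-0.62), and the macrophage score of day 7 library 1 (-0.54) is low while its hydrolase score (0.42) is high.

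Genes outside the sham range were also counted in single libraries. The same count was not made over all genes, so these numbers have no background share beside them. Of 20 hydrolases, 12, 1 and 18 lay above every sham library in day 7 libraries 1, 2 and 3, and 11 lay below every sham library in day 7 library 2. In day 3 libraries 1 to 5 the hydrolases above every sham library numbered 7, 10, 13, 10 and 0, and in library 5 another 11 lay below. Of 8 pump subunits, 8, 4 and 7 lay above every sham library in day 7 libraries 1 to 3, and 3, 6, 7, 8 and 1 in day 3 libraries 1 to 5. Day 7 library 2 therefore had more pump subunits above the sham range than below it (4 and 2), and more hydrolases below than above (11 and 1).

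The lists depended on which libraries entered. Without day 7 library 3 the hydrolase median at day 7 was 0.079, with 12 of 20 positive, and without day 7 library 2 it was 0.77, while the pump median was 0.32 and 0.55. Leaving out day 3 library 5 and day 7 library 1 together gave hydrolase medians of 0.49 at day 7 and 0.33 at day 3, and pump medians of 0.34 and 0.31. In that fit, with 4 day 3 libraries, 1005 genes passed at day 3. Among them were Ctsk (log2 1.52, edgeR adjusted p = 0.0106), Atp6v1h (log2 0.82, adjusted p = 0.0255) and Hexa (log2 -0.85, adjusted p = 0.0370). Both libraries left out had profiles unlike their group in these same data, so these adjusted p-values only describe that fit. At day 3, 0 of 37 members passed without day 3 library 5 alone (smallest edgeR adjusted p = 0.118). Without day 7 library 1 alone, 0 of 37 passed as well (smallest 0.236). Leaving out sham library 4 and day 3 library 1 together gave hydrolase medians of 0.45 and 0.13 and pump medians of 0.32 and 0.20, with 0 genes passing at day 3.

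Markers of macrophages, which are rich in lysosomes, followed the hydrolases in some libraries and not in others. Among the 18 general macrophage markers is Cd68, itself a lysosomal membrane protein, which had their highest difference on both days (1.42 and 1.06). All 18 general macrophage markers had counts, and they summed to 1702 to 7375 CPM at day 7, 1613 to 4003 CPM at day 3 and 2030 to 4627 CPM in sham. Their score was -0.54, -0.56 and 1.30 in the day 7 libraries, -0.0193, -0.15, 0.42, 0.40 and -0.94 in the day 3 libraries and 0.16, 0.83, -0.63 and -0.27 in the sham libraries, so that day 7 library 3 was highest and day 3 library 5 lowest, as for the hydrolases. Day 7 library 1, with 12 of 20 hydrolases above all sham libraries, had a macrophage score near that of library 2. Sham library 2 had the second highest macrophage score and a hydrolase score of 0.042. The mean macrophage score differed from sham by 0.044 at day 7 and -0.080 at day 3, beside 0.47 and 0.29 for the hydrolases. Of the 18 markers, 14 had a positive difference at day 7 (median 0.32), beside 50.7% of all genes. At day 3, 10 did (median 0.067), beside 48.3%. Before adjustment 0 of 18 had edgeR p under 0.05 on either day, beside 6.26% and 10.9% of all genes.

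The 12 markers of lipid-associated macrophages, 2 of which are lysosomal genes themselves (Atp6v0d2 and the acid phosphatase Acp5), all had counts and summed to 7107 to 10941 CPM at day 7, 5686 to 8151 CPM at day 3 and 3908 to 9462 CPM in sham. At day 7, 10 of 12 differences were positive (median 1.503) and 6 were higher with p under 0.05 before adjustment by edgeR, beside 3.51% of all genes. At day 3, 7 were positive (median 0.10) and 1 was higher with p under 0.05, beside 5.9% of all genes. None passed after adjustment. Their score was 0.72, -0.27 and 1.90 in the day 7 libraries, -0.88, 0.0260, 0.58, 0.34 and -0.74 in the day 3 libraries and -0.0327, -0.32, -0.50 and -0.83 in the sham libraries. Neutrophil markers, with Ly6g without counts, scored 2.74, -2.20 and -1.78 in the day 7 libraries. Their score was 1.29, 1.53, 1.32, 0.0705 and -2.57 in the day 3 libraries and 1.91, 1.97, -0.82 and -3.45 in the sham libraries. The part of these cells in the differences was not tested.

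Between the days, no member passed either. Of 37 members, 28 had a positive difference of day 7 from day 3 (median 0.20), beside 52.8% of all genes (median 0.025). After adjustment 0 of 37 passed, and 0% of all genes did. Before it, 3 had p under 0.05, all higher at day 7, beside 3.34% of all genes (1.7% higher and 1.64% lower). They were Hexa (0.75, SE 0.311), Atp6v1b2 (0.59, SE 0.247) and Atp6v1a (0.51, SE 0.234), each with an edgeR adjusted p of 0.999. The libraries of the days overlapped for all 37 members, beside 2.72% of all genes that did not overlap (1.35% higher and 1.37% lower at day 7). Hydrolases had a median of 0.23 with 17 of 20 positive, and pump subunits a median of 0.14 with 5 of 8 positive.

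The 31 other hydrolases of the lysosome gave different counts. All of them were tested, and 12 had a positive difference at day 7 (median -0.078) and 11 at day 3 (median -0.14). The difference between the lists was not tested. None passed after adjustment. Before it, 0 were higher and 1 was lower with p under 0.05 at day 7, beside 3.51% and 2.75% of all genes. At day 3, 0 were higher and 2 were lower, beside 5.9% and 4.97% of all genes. Naaa, the acid amidase that degrades palmitoylethanolamide, was lower at day 7 (-0.65, SE 0.241, adjusted p = 0.731), with all day 7 libraries below all sham libraries. At day 3 Pla2g15, the lysosomal phospholipase A, had 51.9, 23.9, 38.2, 33.2 and 87.8 CPM in the day 3 libraries, against 108, 91.7, 92.4 and 123 CPM in the sham libraries, without overlap (-1.14, SE 0.452, adjusted p = 0.421). The hyaluronidase Hyal2 was also below all sham libraries in every day 3 library (-0.49, SE 0.166, adjusted p = 0.403).

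**Figure D5:**
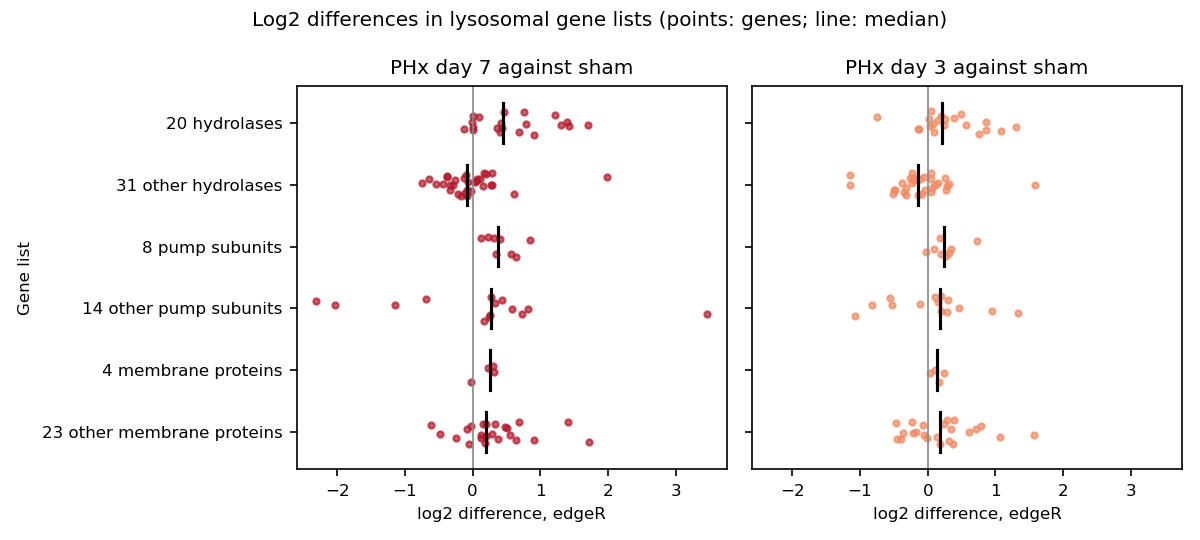
Log2 differences from sham (horizontal axis, edgeR) at day 7 and day 3 for the 20 hydrolases, 8 pump subunits and 4 membrane proteins and for the other tested genes of each kind (points are genes, the line is the median). The 20 hydrolases have medians of 0.45 and 0.22 and the 31 other hydrolases medians of -0.078 and -0.14.

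Of 17 other pump subunits 14 were tested, with medians of 0.27 at day 7 (10 positive) and 0.18 at day 3 (9 positive). Before adjustment 2 were higher and 2 lower at day 7 with edgeR p under 0.05, beside 3.51% and 2.75% of all genes. All day 7 libraries lay above all sham libraries for 1 and below them for 3, beside 2.83% and 4.07% of all genes. This list held the most unequal values. Atp6v0d2, a V0 subunit known from osteoclasts and macrophages, had 15.3, 3.57 and 120.4 CPM in the day 7 libraries, 2.57, 5.57, 21.2, 20.3 and 3.31 CPM in the day 3 libraries and 6.30, 2.80, 3.17 and 4.44 CPM in the sham libraries. Its day 7 difference was 3.47 (SE 1.03, adjusted p = 0.632), and day 7 library 3 held most of it. Atp6v0a4, the V0 subunit known from kidney, was lower in all day 7 libraries (4.60, 2.38 and 1.90 CPM) than in sham (9.61, 16.2, 8.08 and 14.9 CPM), with a difference of -2.04 (SE 0.572, adjusted p = 0.564). Atp6v1g1, a stator subunit, was higher in all day 7 libraries (117, 94.6 and 105 CPM) than in sham (71.5, 59.1, 77.7 and 73.2 CPM), by 0.59 (SE 0.177, adjusted p = 0.632).

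Of 24 other membrane proteins 23 were tested, with medians of 0.20 at day 7 and 0.19 at day 3. Hgsnat, which acetylates heparan sulfate across the membrane, had differences of 0.90 at day 7 (SE 0.297, adjusted p = 0.719) and 0.71 at day 3 (SE 0.266, adjusted p = 0.412). Cln3, the protein lost in juvenile neuronal ceroid lipofuscinosis, was higher in all day 7 libraries than in sham (0.64, SE 0.219, adjusted p = 0.721). The 12 genes for other activators and hydrolase sorting had medians of 0.081 and -0.18, with the cholesterol carrier Npc2 lower in all day 7 libraries (-0.44) and Nagpa, which uncovers the mannose 6-phosphate tag, lower in all day 3 libraries (-0.50). The 4 tested inhibitors of lysosomal proteases, of 6 listed, had medians of 0.17 and 0.049.

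The 17 genes that place mTORC1 and the TFEB family at the lysosome had medians of 0.18 at day 7 and 0.12 at day 3. Rraga, the small GTPase that recruits mTORC1, had 91.9, 51.3 and 62.4 CPM in the day 7 libraries, 88.7, 86.2, 73.6, 65.5 and 50.4 CPM in the day 3 libraries and 47.7, 46.3, 40.1 and 41.3 CPM in the sham libraries. All libraries after hepatectomy lay above all sham libraries, with differences of 0.64 at day 7 (SE 0.232, adjusted p = 0.721) and 0.73 at day 3 (SE 0.208, adjusted p = 0.403). Its dimer partner Rragc differed by 0.25 and 0.52. Fnip2, which with folliculin acts on these GTPases, had 106, 18.5 and 73.8 CPM in the day 7 libraries, 69.9, 87.3, 73.2, 70.8 and 21.8 CPM in the day 3 libraries and 25.7, 28.7, 18.4 and 17.1 CPM in the sham libraries. Day 7 library 2 and day 3 library 5 lay within the sham range, as for Ctsl, and the rest above it, with differences of 1.56 (SE 0.512, adjusted p = 0.719) and 1.52 (SE 0.469, adjusted p = 0.403).

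In the authors' deposited table, 0 of 37 members had a step-up false discovery rate (FDR) under 0.05 at either day, beside 0.227% of 21990 genes at day 7 and 0.564% at day 3. The smallest FDR of a member in the authors' deposited table was 0.0751 at day 7, for Ctsk, and 0.0853 at day 3, for Atp6v1h. The p-value in the authors' deposited table was under 0.05 for 12 of 37 members at day 7, beside 6.33% of all genes, and for 5 at day 3, beside 10.8%. Strandedness is not stated, and by the deposited coordinates 11 members overlap another gene, among them Hexa (309 bases shared with Tmem202 on the other strand) and Atp6v1h (269 bases shared with Rgs20 on the other strand), whose reads could not be separated.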

How the data were processed

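RNA from epididymal fat of 12 mice was sequenced, and the totals per library set the precision of low genes. Frozen fat was lysed in QIAzol, and the RNA was purified on RNeasy columns with DNase, per the labels' protocols. The labels name polyA RNA and the series design total RNA. Per the submitters' processing notes the tools were Partek, STAR and DESeq2 and the build mm39; versions and settings are not given in the sources used here. The deposited values are expected counts per gene (28.6% to 39.7% not whole in a library, rounded here) and, per the file headers, a block of normalized count signal that served here only for matching. The authors also deposited a p-value, an FDR, a ratio and a log2 ratio for each day against sham.

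In the deposited table, 18065 of the 18086 lines of per-sample values stand beside another gene than their own. Each line was matched to the gene with the deposited mean and maximum that it gives, within a relative tolerance of 3e-05. Of these, 18070 matched 1 gene, 16 were settled by neighbours and 0 broke the gene order. The group means of the authors lay within 5% for 100% of genes with a normalized count of at least 20. The 4065 genes without values hold 0.0784% of the normalized counts, and columns of no labelled sample numbered 0.

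The test was edgeR 4.0.16 (R 4.3.3, statmod 1.5.0) (filterByExpr with a minimum count of 10, TMM scaling, robust quasi-likelihood F-test on all 12 libraries with 1 coefficient per group, Benjamini-Hochberg adjustment over 17012 genes). Scores used a prior count of 2. The procedure was tested on simulated data. Alternatives were DESeq2 1.42.0, limma 3.58.1 voom with quality weights, other scalings and filters, a replicate block, and fits without single libraries or pairs of libraries. Each library is 1 animal per the labels, so p-values measure the spread between animals and preparations. Members, gene lists and marker lists were chosen with earlier results of these data known. All 37 members are accounted for. Values in every library are given for the 4 hydrolases, 2 pump subunits, 1 membrane protein, 1 of Psap and Grn and 1 transcription factor with the smallest p in each comparison with sham, and for members whose libraries did not overlap with sham. From the other lists up to 3 genes with the smallest p are named. Gla, Lgmn, Gusb, Smpd1 and Atp6v1b2 were described further after their values were seen.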

Additional observations from a re-analysis of the deposited data

Results flagged for a closer look

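In groups of 4 or 5 libraries, 1 library far from the rest was seen for 7 of 80 gene or score groups. For a single group, chance gives about 1 in 20. The genes share libraries and the scores hold the same genes, so the groups are not independent. The 7 of 80 therefore cannot be weighed against that rate. Groups of 3, and so all of day 7, were not examined. Day 3 library 5 was low for Ctsd (1199 CPM, against 1773 to 1969 CPM in the rest of its group), Lgmn (86.6 CPM, against 466 to 539 CPM) and Grn (298 CPM, against 550.1 to 648 CPM). Its hydrolase score was -0.62, against 0.078 to 0.36 in the rest, and its hydrolase score minus pump score was -0.30, against 0.063 to 0.12. Day 3 library 3 was high for Glb1 (42.98 CPM, against 30.5 to 32.7 CPM), and day 3 library 1 was high for Mitf (76.4 CPM, against 32.5 to 41.7 CPM). Day 3 library 5 also had 4331 CPM of Adipoq, against 909 to 1502 CPM in the rest of its group. Adipoq ran from 1595 to 4227 CPM in sham and had 328, 3523 and 2028 CPM in the day 7 libraries. Day 7 library 1 also had the lowest score of adipocyte markers (-1.50) of the 12 libraries.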

How the results depend on the processing

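With 3 to 5 libraries a group, differences near the spread between animals could not be called. The number of genes called was 0 at day 7 against sham, 1 at day 3 against sham and 0 between the days, and leaving out single libraries gave 0 to 3, 0 to 2 and 0 to 4. DESeq2 called 68, 121 and 22, voom with quality weights 15, 0 and 2, and the fit without day 3 library 5 and day 7 library 1 called 17, 1005 and 441. Without sham library 4 and day 3 library 1 the count at day 3 was 0. DESeq2 and voom called 0 of 37 members in the comparisons with sham. The replicate numbers do not pair the libraries (correlations of deviations from -0.37 to 0.19 over 10 pairs). The replicate block at day 3 called 391 genes, among them Ctsk (log2 1.48, adjusted p = 0.0178). That fit leaves out day 3 library 5, which has no sham library of its number. Beside the member calls without day 3 library 5 and day 7 library 1 given above for day 3, Hexa passed between the days (log2 1.198, adjusted p = 0.0292). The limit given above for that fit holds here too. The cause of these changes was not tested. The medians of the hydrolases and of the pump and the difference of their scores moved by less than 1 SD between libraries in every alternative run. That limit is wide, since a hydrolase median of 0.079 at day 7, against 0.45 in the main fit, lay within it. It therefore does not show that these values are stable. The hydrolase median ran from 0.079 to 0.77 at day 7, from 0.12 to 0.33 at day 3 and from -0.089 to 0.51 between the days when single libraries were left out, and the pump median from 0.32 to 0.55, from 0.16 to 0.33 and from 0.091 to 0.24. The score difference between the days ran from -0.20 to 0.25.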

Other observations

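Mesothelial markers, from the lining of the fat pad, lay below sham: 11 of 12 had a negative difference at day 7 (median -1.15) and 10 of 12 at day 3 (median -0.62). At day 7, 7 of them were lower with p under 0.05 before adjustment by edgeR, beside 2.75% of all genes. None passed after adjustment. Their summed level ran from 318 to 1208 CPM at day 7, from 785 to 1355 CPM at day 3 and from 1039 to 1506 CPM in sham. B cell markers, 7 of 8 of which were tested, had medians of -2.33 at day 7 and -3.23 at day 3, with summed levels of 6.11 to 371 CPM, 6.05 to 162 CPM and 20.1 to 253 CPM in day 7, day 3 and sham libraries. Red blood cell markers were positive for 6 of 6 genes on both days (medians 1.36 and 2.17), with sums of 3944 to 13744 CPM at day 7, 1796 to 27789 CPM at day 3 and 1474 to 4528 CPM in sham.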
